A study of Mus musculus with 18 samples.

Results

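Levels of 10 genes of the myosin thick filament were followed in 18 RNA-seq libraries of mouse hindlimb muscle. They are the light chain genes Myl1, Myl2, Myl3, Myl4, Myl6b and Mylpf, the light chain kinase gene Mylk2, and the myosin-binding protein genes Mybpc1, Mybpc2 and Mybph. They were taken by symbol from the 41388 genes counted, with earlier results of these data known, and each of the 10 matched 1 Ensembl identifier. The libraries came from the gastrocnemius, a mainly fast-fibre calf muscle, and from the soleus, a neighbouring muscle richer in slow fibres. All mice were 12 weeks old, ate standard chow, were fasted for 4 h and carried floxed alleles of Site-1 Protease (gene Mbtps1), a Golgi protease that releases membrane-bound transcription factors. The knockout mice also carried HSACre, a Cre recombinase whose human skeletal actin promoter works in muscle fibres and not in the other cells of a muscle. The titles give 5 control and 4 knockout libraries per muscle, although the series text states 4 per group. No group with Cre alone stands among the libraries, so loss of the protease and an effect of the Cre allele cannot be told apart. No label says that libraries came from separate mice. Replicates differed by more than random counting of reads gives (chi-square per gene 19.59 to 140.26), which cannot tell mice from sample handling. Whether the p-values measure spread between mice is therefore not known.

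Each myosin head carries a pair of light chains on its lever arm, an essential and a regulatory one. Fast fibres use the essential chain encoded by Myl1 and the regulatory chain encoded by Mylpf, whereas slow fibres use Myl3 and Myl2, which the heart ventricle also uses. Myl4 encodes the essential chain of embryonic muscle and the adult atrium, and Myl6b encodes a further slow-type essential chain. Mylk2 encodes the skeletal muscle kinase that, once switched on by calcium, phosphorylates the regulatory chain and thereby raises force at a given calcium level. Myosin-binding protein C lies in stripes along the thick filament and tunes how heads meet actin. Mybpc1 encodes its slow form and Mybpc2 its fast form, and Mybph encodes a shorter relative, myosin-binding protein H.

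Library totals ran from 39.0 to 78.2 M counts, and the 10 genes together made up 1.81% to 2.51% of a gastrocnemius library and 0.99% to 1.22% of a soleus library. Levels are CPM, counts scaled to a common library size, on library sizes scaled by the trimmed mean of M-values (TMM), and levels of different genes are compared only per kilobase of the listed gene length. Mbtps1 did not check the labels: its level was 31.5 ± 2.4 CPM (SD, n = 5) in gastrocnemius controls and 37.6 ± 3.58 (SD, n = 4) in the libraries labelled knockout. In the soleus it was 32.3 ± 1.5 (SD, n = 5) against 34.5 ± 2.51 CPM (SD, n = 4), and a count over the whole gene cannot resolve a deleted exon. The 11 skeletal muscle fibre markers summed to 170353 CPM or more in every library. Of the heart list, Nppa and Nppb did not exceed 0.451 CPM in any library, and Tnni3 and Ryr2 did not exceed 1.86 CPM. Myh6, also on that list, averaged 11 CPM in gastrocnemius controls and 7.95 in gastrocnemius knockouts. In the soleus Myh6 averaged 146 CPM in controls and 107 in knockouts. Libraries 7 (gastrocnemius knockout), 40 and 42 (soleus knockout) stand apart for several of the 10 genes, and the knockout differences they move most are also given without them. In bulk muscle, fewer fibres of a type and less RNA per fibre cannot be told apart.

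The promoters of a slow and a fast light chain gene and of 2 binding-protein genes are shown first, because these 4 genes spanned the range of muscle differences reported below. The letters come from RefSeq on GRCm38.p6, run 5′ to 3′ on the gene's strand and end at the base before the gene's start in the deposited files. Capitals mark the E-box CANNTG, bound by myogenic bHLH factors, the muscle CAT motif CATTCC, the CArG box and the TATA box TATAAA, on either strand.
Myl3 (chr9:110763428-110763645, plus strand): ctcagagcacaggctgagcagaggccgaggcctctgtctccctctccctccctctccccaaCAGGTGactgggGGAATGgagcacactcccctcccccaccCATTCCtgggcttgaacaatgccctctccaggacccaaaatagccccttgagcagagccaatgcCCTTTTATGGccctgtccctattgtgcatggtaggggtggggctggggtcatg
Mylpf (chr7:127211358-127211607, plus strand): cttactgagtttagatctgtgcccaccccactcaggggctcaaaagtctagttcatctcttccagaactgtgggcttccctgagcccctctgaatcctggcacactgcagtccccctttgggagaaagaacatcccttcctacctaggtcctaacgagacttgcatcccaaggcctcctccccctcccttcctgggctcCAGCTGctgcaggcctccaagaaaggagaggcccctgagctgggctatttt
Mybpc2 (chr7:44524670-44524919, minus strand): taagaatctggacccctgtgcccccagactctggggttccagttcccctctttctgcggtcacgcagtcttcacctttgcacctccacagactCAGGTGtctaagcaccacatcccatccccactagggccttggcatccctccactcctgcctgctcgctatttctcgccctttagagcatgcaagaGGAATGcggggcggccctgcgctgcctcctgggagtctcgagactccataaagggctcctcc
Mybph (chr1:134193198-134193447, plus strand): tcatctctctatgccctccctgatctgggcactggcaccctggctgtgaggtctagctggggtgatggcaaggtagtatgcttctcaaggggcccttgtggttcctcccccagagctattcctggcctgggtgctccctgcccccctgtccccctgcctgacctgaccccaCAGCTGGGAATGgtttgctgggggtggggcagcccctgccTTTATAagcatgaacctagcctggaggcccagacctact
In Mybph the E-box and the CATTCC motif abut. RefSeq windows were found for 9 of the 10 genes, and for 8 of these the window lay within 348 bp of the gene's start in the files. Over the 250 bp before the RefSeq start, 7 of those 8 held CANNTG, against 66.2% of all 32851 mouse promoters searched. The palindrome CAGCTG was in 4 of 8, against 13.0% of all promoters, and CATTCC was also in 4 of 8, against 12.6%. A TATAAA stood in 2 of 8 (12.4% of all) and a CArG box in 1, that of Myl3 (1.47% of all). The MEF2 motif was in 0 of 8 (2.92% of all). The ER stress element, bound by the protease's substrate ATF6, was in 0 of 8 (0.113% of all), and the sterol element TCACNCCAC in 0 of 8 (1.05% of all). A match or its absence describes these letters only. Promoters of Myl4 and Myl6b were the richest in CpG, with 23 and 18 CpG dinucleotides, and those of Mybph, Myl3 and Mylpf held 0, 1 and 1.

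**Figure D1:**
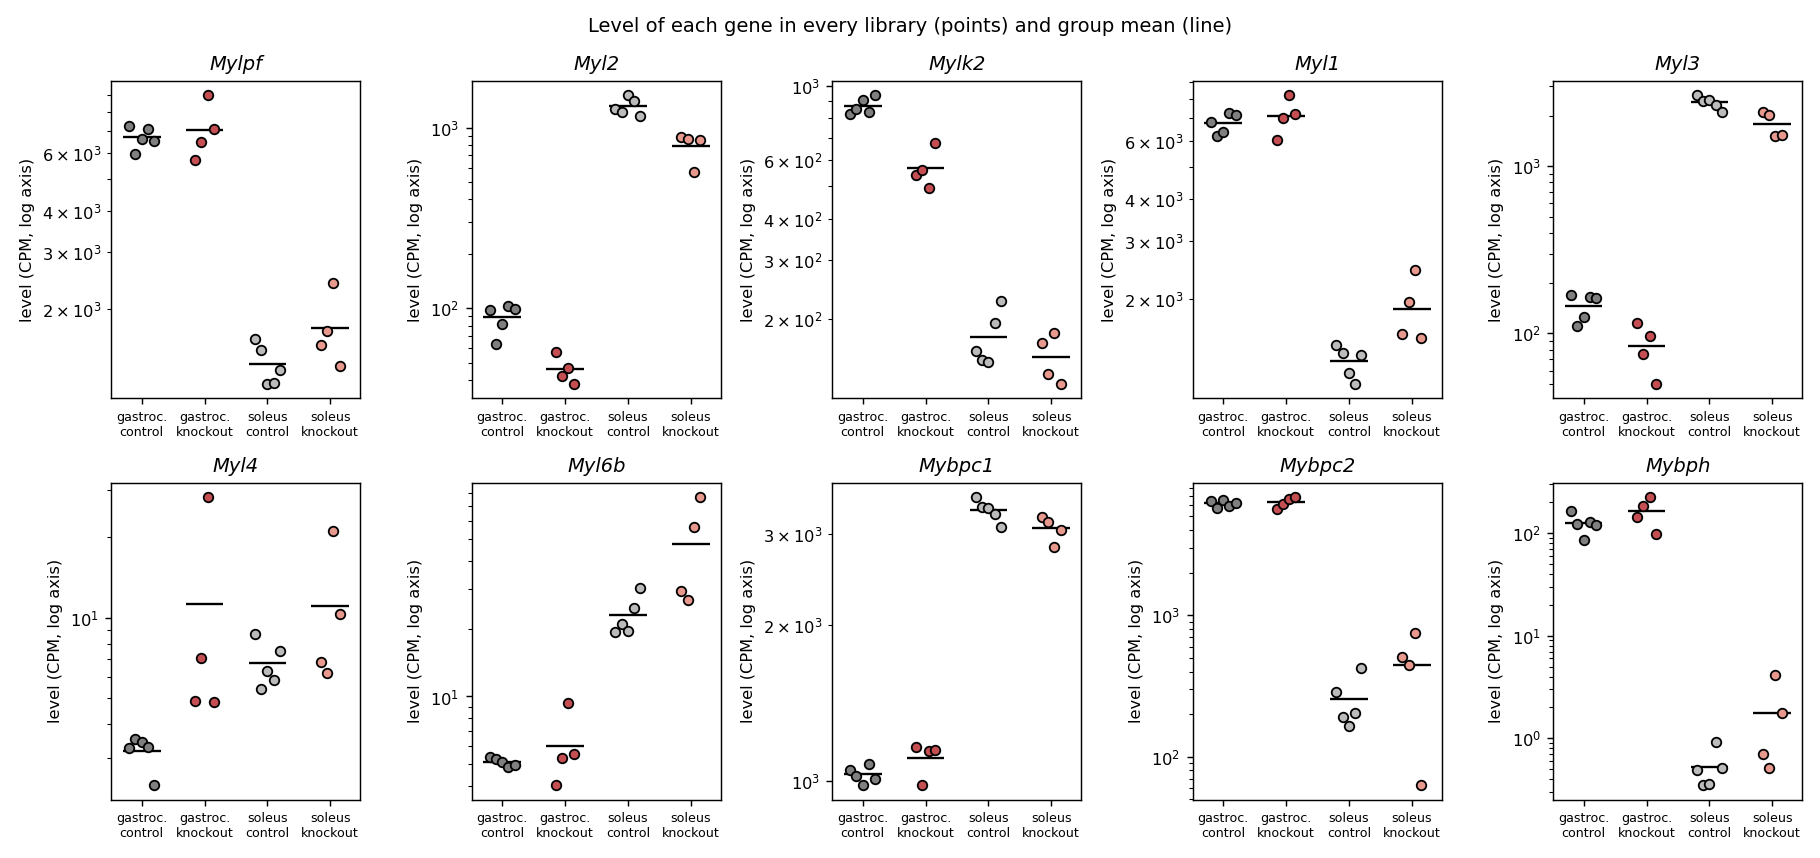
Level of each gene in CPM (log axis, its range differing between panels) in every library, by muscle and genotype, with the group mean as a line; 5 control and 4 knockout libraries per muscle. Mybph falls from 125 CPM in gastrocnemius controls to 0.526 in soleus controls, while the group means of Myl2 and Myl3 are lower in the knockout libraries of each muscle.

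The first comparison asked how the muscles differ. Genotypes run in the same order along replicates 1 to 9 of the gastrocnemius and 34 to 42 of the soleus, but no label says whether the muscles came from the same mice, so all libraries were fitted as independent. In control mice 9 of the 10 genes passed the test (edgeR quasi-likelihood, adjusted p under 0.05), 4 higher and 5 lower in the soleus, against a background of 49.3% of all 18494 genes tested (27.4% higher, 21.9% lower). Higher in the soleus were Myl2, Myl3, Myl6b and Mybpc1, and lower were Myl1, Mylpf, Mylk2, Mybpc2 and Mybph. Groups did not overlap for any of the 10 (5 higher, 5 lower), which was the case for 36.7% of genes tested (19.7% higher, 17% lower). With plain library totals in place of TMM the median log2 difference of all genes moved from 0.08 to 0.35, and the share of called genes that were higher in the soleus from 55.6% to 79.8%, but none of the 10 changed direction. In the libraries labelled knockout the same split of 4 higher and 5 lower was found, against 37.8% of genes called (19.2% higher, 18.5% lower), with Myl4 again the gene that did not pass.

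Among essential chains, the fast gene Myl1 (ENSMUSG00000061816, chr1:66924295-66945404) stood at 6807, 6194, 6353, 7270 and 7182 CPM in gastrocnemius controls (replicates 1, 3, 4, 5 and 8). Soleus controls held 1456, 1373, 1199, 1114 and 1357 CPM (replicates 34, 36, 37, 38 and 41), a log2 difference of -2.38 (SE 0.12, adjusted p = 4.19e-13). The slow gene Myl3 (ENSMUSG00000059741, chr9:110763646-110769804) ran the other way. It held 169, 111, 126, 165 and 163 CPM in gastrocnemius controls and 2647, 2467, 2470, 2321 and 2109 in soleus controls, a log2 difference of 4.03 (SE 0.20, adjusted p = 3.46e-11). Myl6b (ENSMUSG00000039824, chr10:128494157-128498685) rose from 5.12 ± 0.199 CPM (SD, n = 5) to 23 ± 4.53 (SD, n = 5), a log2 difference of 2.16 (SE 0.29, adjusted p = 1.55e-05). Myl4 (ENSMUSG00000061086, chr11:104550663-104595753), the embryonic and atrial chain, stood at 3.27, 3.53, 3.45, 3.29 and 2.37 CPM in gastrocnemius controls. Soleus controls held 8.67, 5.43, 6.33, 5.88 and 7.5 CPM, all above every gastrocnemius control. The log2 difference of 1.09 (SE 0.49) had an adjusted p of 0.0789 in edgeR, and 0.00818 without gastrocnemius knockout 7, which enters the 4-group fit. Myl4 passed in 5 of 25 alternatives, so the count of 9 genes depends on the setting. It also passed in DESeq2 (adjusted p = 0.045) and in edgeR with only the 2 control groups fitted (1.18e-05). Other scalings in edgeR gave 0.0326 (plain library totals) and 0.0388 (totals without the 20 most counted genes).

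For the regulatory chains, Mylpf (ENSMUSG00000030672, chr7:127211608-127214298) fell from 6698 ± 517 CPM (SD, n = 5) in gastrocnemius controls to 1361 ± 197 (SD, n = 5) in soleus controls, a log2 difference of -2.30 (SE 0.15, adjusted p = 1.11e-10). Myl2 (ENSMUSG00000013936, chr5:122100951-122113472) rose from 89.1 ± 16.5 CPM (SD, n = 5) to 1310 ± 141 (SD, n = 5), a log2 difference of 3.88 (SE 0.16, adjusted p = 6.42e-13). The kinase gene Mylk2 (ENSMUSG00000027470, chr2:152911352-152923068) followed the fast chains: 822, 854, 904, 835 and 936 CPM in gastrocnemius controls and 160, 151, 149, 195 and 226 in soleus controls. Its log2 difference was -2.30 (SE 0.12, adjusted p = 3.17e-12). The kinase and the fast regulatory chain, a substrate of it, were both lower in the soleus by about the same amount.

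Binding proteins gave the widest range. Mybph (ENSMUSG00000042451, chr1:134193448-134201232) stood at 165, 123, 85.9, 128 and 121 CPM in gastrocnemius controls and at 0.486, 0.347, 0.361, 0.924 and 0.511 in soleus controls. The log2 difference of -7.94 (SE 0.54, adjusted p = 1.09e-08) was the largest of the 10. The soleus level needs care, because Adora1 on the opposite strand shares 1162 bp of exon with Mybph and held 0.583 to 0.763 CPM there, and the sources used here do not give the strand setting. Mybpc2 (ENSMUSG00000038670, chr7:44501699-44524669) fell from 6184 ± 335 CPM (SD, n = 5) to 254 ± 105 (SD, n = 5), a log2 difference of -4.60 (SE 0.50, adjusted p = 2.17e-06). Mybpc1 (ENSMUSG00000020061, chr10:88518279-88605152), the slow form, rose from 1027 ± 38.3 to 3335 ± 163 CPM (SD, n = 5 each), a log2 difference of 1.70 (SE 0.07, adjusted p = 9.99e-15).

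Per kilobase, the order of levels in gastrocnemius controls began with Mylpf (7569 CPM per kb), Myl1 (3260) and Mybpc2 (1706). Mylk2 (295), Mybpc1 (227), Myl3 (112), Mybph (53.5), Myl2 (45.7), Myl6b (4.99) and Myl4 (0.687) followed. Neighbours overlapped in their range over libraries only for Mybph and Myl2. In soleus controls Myl3 (1840) and Mylpf (1538) led with overlapping ranges, then came Mybpc1 (737), Myl2 (672) and Myl1 (627), each overlapping the next, and Mybph (0.226) was last. The listed lengths sum every annotated exon, and this order depends on them. The fast regulatory chain was an abundant transcript in the slow-rich soleus too.

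**Figure D2:**
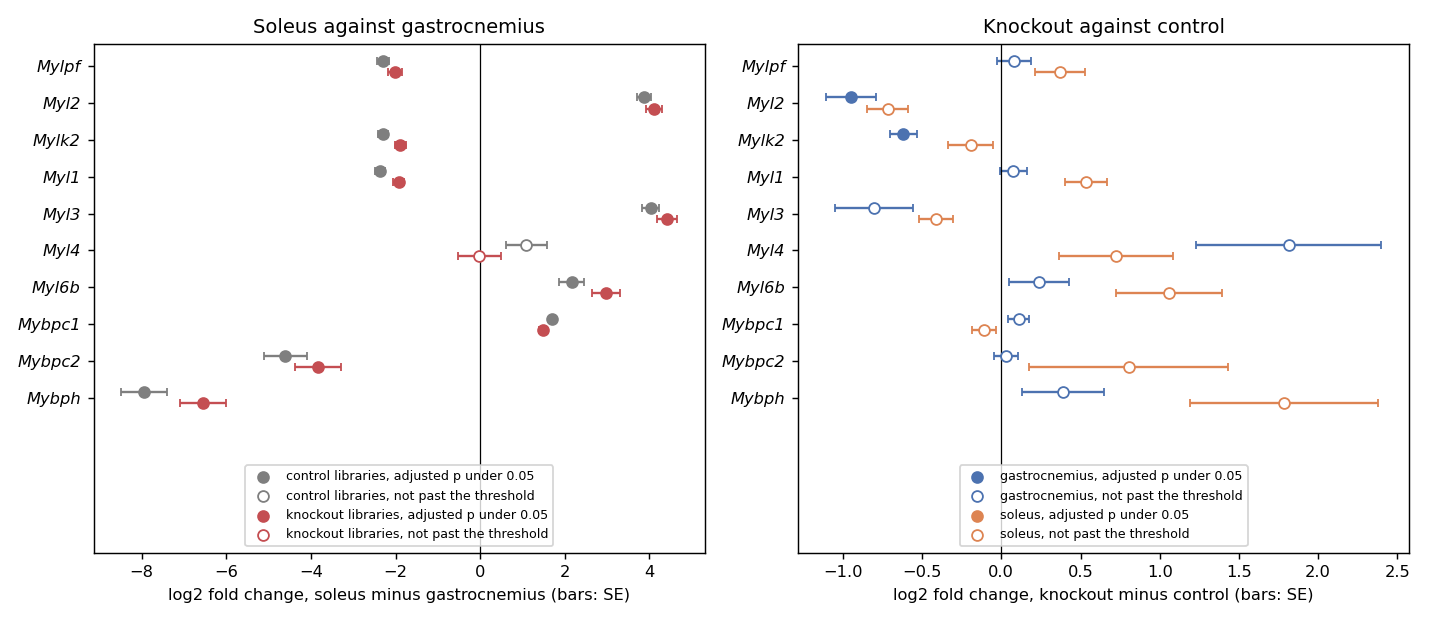
Log2 fold change of each gene with its SE, for soleus against gastrocnemius (left) and knockout against control (right); filled symbols have an adjusted p under 0.05. Filled symbols cover 9 of 10 genes in the left panel for each genotype, and in the right panel Myl2 and Mylk2 in the gastrocnemius.

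In the gastrocnemius, the kinase gene Mylk2 and the slow regulatory chain Myl2 were lower in the libraries labelled knockout, whereas Myl1, Mylpf, Mybpc1 and Mybpc2 showed log2 differences of at most 0.11 in size. Thus 2 of 10 genes were called, both lower, against 3.78% of the 16393 genes tested in either direction (1.77% higher, 2.01% lower). The median log2 change of the 10 was 0.08, beside 0.02 for all genes tested. Groups did not overlap for 3 of 10 (Myl4 higher, Myl2 and Mylk2 lower), against 8.41% of genes (3.79% higher, 4.62% lower). Mylk2 held 539, 559, 494 and 676 CPM in replicates 2, 6, 7 and 9, all below the lowest control at 822. Its log2 change was -0.62 (SE 0.09, adjusted p = 0.00234), a level 0.652 times that of controls, and the call held without each of the 9 libraries in turn (adjusted p 0.00209 to 0.0153). Myl2 held 97.8, 63.6, 81.7, 103 and 99.1 CPM in controls and 57.5, 42, 46.8 and 38.2 in the libraries labelled knockout. Here too the groups did not overlap, the lowest control being replicate 3. The log2 change was -0.95 (SE 0.16, adjusted p = 0.0113), 0.518 times the control level, but without knockout 7 it was -0.96 with an adjusted p of 0.0588. The number of genes called overall also moved from 619 to 1080 without knockout 2, and to 261, 278, 206, 211, 287, 354 and 394 without replicates 1, 4, 5, 6, 7, 8 and 9.

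The partner of Myl2 in slow fibres, Myl3, held 115, 75.4, 96 and 50.1 CPM in the gastrocnemius libraries labelled knockout. Of these, knockout 2 lay within the control range of 111 to 169. The log2 change of -0.80 (SE 0.25) had an adjusted p of 0.124 in edgeR, although 3 alternatives passed (0.00164 in DESeq2, 0.0424 in limma voom and 0.0287 with all 18 libraries in the edgeR fit). Myl4 held 4.88, 7.06, 28.2 and 4.84 CPM, each above the highest control at 3.53. Its log2 change of 1.82 (SE 0.58, adjusted p = 0.148) rested in size on knockout 7, and without that library it was 0.82 with an adjusted p of 0.0276. For DESeq2 this gene had no adjusted p. Knockout 7 was also the highest library for Myl6b, at 9.32 CPM beside 4.03 to 5.53 in the other knockouts and 4.86 to 5.36 in controls. The log2 change of Myl6b was 0.24 (SE 0.19, adjusted p = 0.56) and became -0.04 without knockout 7. Mybph held 144, 186, 225 and 97.4 CPM, overlapping its controls (log2 0.39, SE 0.26, adjusted p = 0.498).

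For the 4 abundant genes the differences were small and none passed. Myl1 went from 6761 ± 481 to 7124 ± 889 CPM (log2 0.08, SE 0.09, adjusted p = 0.708), and Mylpf from 6698 ± 517 to 7078 ± 1401 (log2 0.08, SE 0.11, adjusted p = 0.771; -0.06 without knockout 7). Mybpc2 went from 6184 ± 335 to 6314 ± 566 CPM (log2 0.03, SE 0.07, adjusted p = 0.877; -0.01 without knockout 9) and Mybpc1 from 1027 ± 38.3 to 1107 ± 84.4 (log2 0.11, SE 0.07, adjusted p = 0.434), SD with n = 5 and n = 4 for all. A p that misses the threshold does not show these levels to be alike.

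In the soleus no gene of the 10 passed the adjusted test in edgeR, where 0.0553% of 18087 genes did. At an unadjusted p under 0.05 there were 6: Myl1, Mylpf, Myl6b and Mybph with higher values and Myl2 and Myl3 with lower values, beside 8.19% of all genes tested. DESeq2 called 3 (Myl2, adjusted p = 0.000138; Myl1, 0.0288; Myl3, 0.0469) and limma voom 0. The median log2 change of the 10 was 0.45, beside 0 for all genes tested. Groups did not overlap for 3 of 10 (Myl1 with higher values, Myl2 and Myl3 with lower), against 2.55% of genes (1.31% higher, 1.24% lower). The overall count of 10 called genes became 66 without knockout 35, 4 without control 34 and 3 without control 37.

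Myl2 held 1260, 1219, 1505, 1406 and 1162 CPM in soleus controls and 886, 869, 568 and 852 in the libraries labelled knockout. Knockout 40 was the lowest by far, and the other 3 lay close together and below every control. The log2 change of -0.72 (SE 0.13) had an adjusted p of 0.0851, and of 0.0434 without knockout 35. Without library 40 it was -0.59 (adjusted p = 0.0653), and without 40 and 42 it was -0.58 (adjusted p = 0.164). Myl3 held 2095, 2031, 1524 and 1545 CPM in the knockout group, the highest just below the lowest control at 2109 (log2 -0.41, SE 0.11, adjusted p = 0.284; -0.22 without libraries 40 and 42). Myl1 stood at 1566, 1960, 2441 and 1525 CPM in the knockout group, above its highest control at 1456 (log2 0.53, SE 0.13, adjusted p = 0.256; 0.44 without libraries 40 and 42). Mylpf, at 1559, 1712, 2400 and 1337 CPM, overlapped its controls of 1185 to 1625 (log2 0.37, SE 0.16, adjusted p = 0.582). Its highest value was in library 40, and the log2 change of Mylpf was 0.18 without that library (adjusted p = 0.996) and 0.26 without 40 and 42.

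The scarcer genes were spread widely over the soleus knockout libraries. Mybph held 0.706, 0.513, 4.1 and 1.78 CPM (log2 1.78, SE 0.59, adjusted p = 0.472), Myl6b 29.4, 26.9, 56.6 and 76.8 (log2 1.06, SE 0.34, adjusted p = 0.477), and Myl4 6.86, 6.22, 21 and 10.3 (log2 0.72, SE 0.36, adjusted p = 0.669). In each of these, libraries 40 and 42 were the highest of the soleus. Without those libraries the log2 change was 0.22 for Mybph, 0.29 for Myl6b and -0.05 for Myl4. Without library 40 alone it was 0.96 for Mybph and 0.21 for Myl4. Mybpc2 separated the same libraries in opposite directions, at 504, 448, 752 and 62.7 CPM, with 752 in library 40 and 62.7 in library 42 and controls from 166 to 423 (log2 0.80, SE 0.63, adjusted p = 0.818). The log2 change of Mybpc2 was 0.41 without library 40, 1.17 without library 42 and 0.90 without both. Mybpc1 (3335 ± 163 against 3077 ± 177 CPM, SD, n = 5 and 4; log2 -0.11, SE 0.08, adjusted p = 0.759) and Mylk2 (176 ± 33.2 against 153 ± 25.3; log2 -0.19, SE 0.14, adjusted p = 0.785) overlapped between groups.

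**Figure D3:**
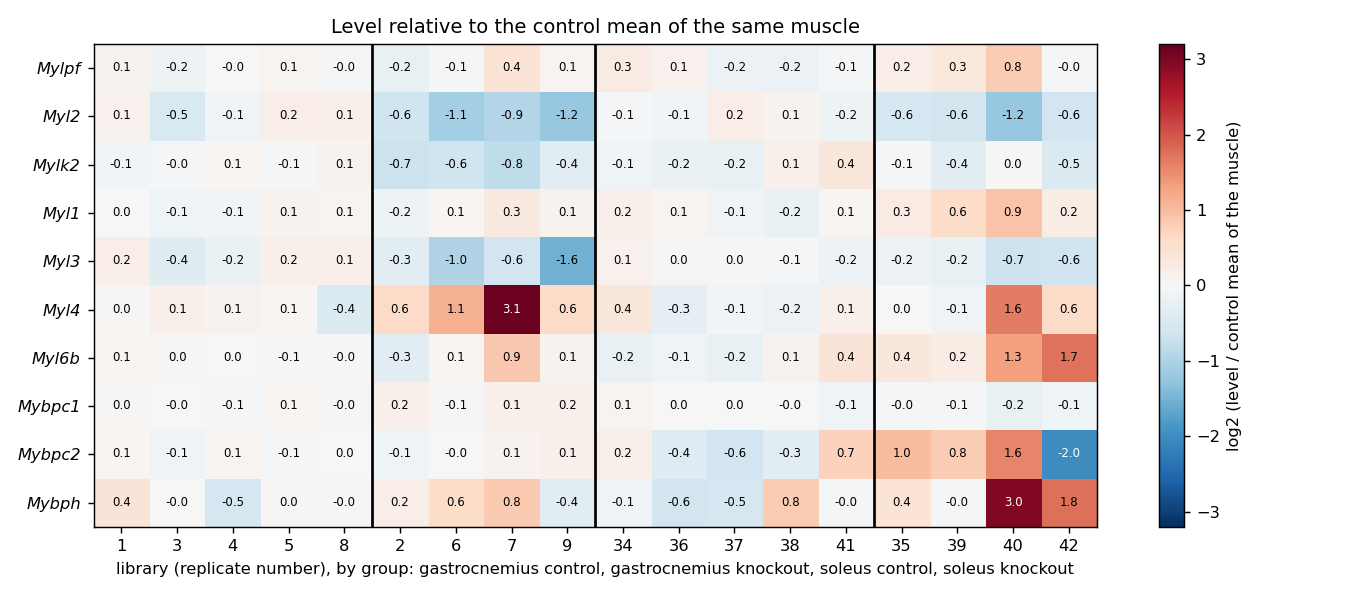
Log2 of each level over the mean of the controls of the same muscle, for 10 genes (rows) and 18 libraries (columns, by replicate number, vertical lines between the groups). Library 7 stands out for Myl4 (3.15), library 40 for Mybph (2.96) and library 42 for Myl6b (1.74) and Mybpc2 (-2.02).

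Summed markers of fibroblasts, macrophages and satellite cells were highest in library 7 in the gastrocnemius and in libraries 40 and 42 in the soleus. The sum of immature fibre markers set libraries 40 and 42 apart in the soleus, but not library 7 in the gastrocnemius. The summed level of 9 genes of immature or regenerating fibres, none of them at 0, was 460 to 671 CPM in gastrocnemius controls. It was 1010 to 1584 in gastrocnemius knockouts, with 1584 in library 6 and 1564 in library 7. Most of that rise was Actc1, with a mean of 150 CPM in controls and 867 in knockouts, while Myh8 held 357 and 370. In the soleus the sum was 135 to 161 CPM in controls and 164, 147, 483 and 431 in libraries 35, 39, 40 and 42. In the gastrocnemius 4 of these 9 genes rose (Myod1, Chrng, Chrna1 and Actc1, adjusted p 0.00601 to 0.0218), and in the soleus 0 of 9 passed in edgeR (4 at an unadjusted p under 0.05). Embryonic myosin heavy chain Myh3 was 69.8 CPM in library 7, 89.3 in library 40 and 258 in library 42, beside 13.7 to 41.4 in all controls. Summed levels of 5 fibroblast markers were 4053, 2296 and 1817 CPM in libraries 7, 40 and 42, above every control of the same muscle. The 4 macrophage markers summed to 99.2, 57.2 and 41 CPM, and the 4 satellite cell markers to 19.5, 16 and 15.1. Controls reached 56 CPM (gastrocnemius) and 40.6 (soleus) for macrophage markers, and 9.68 and 11.8 for satellite cell markers. Sums of endothelium, Schwann cell, adipocyte, tendon and red blood cell markers peaked in other libraries of each muscle. The smooth muscle sum peaked in library 40 in the soleus and in control 4 in the gastrocnemius. Most of that sum was Des, which is also on the fibre list, with a mean of 3250 CPM in soleus controls and 3505 in soleus knockouts. Means of Acta2, Myh11, Tagln, Cnn1 and Smtn were lower in soleus knockouts than in soleus controls, and none of these passed in edgeR. No marker of these lists was at 0, and the part of these cells or fibres in the levels of the 10 genes was not tested.

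**Figure D4:**
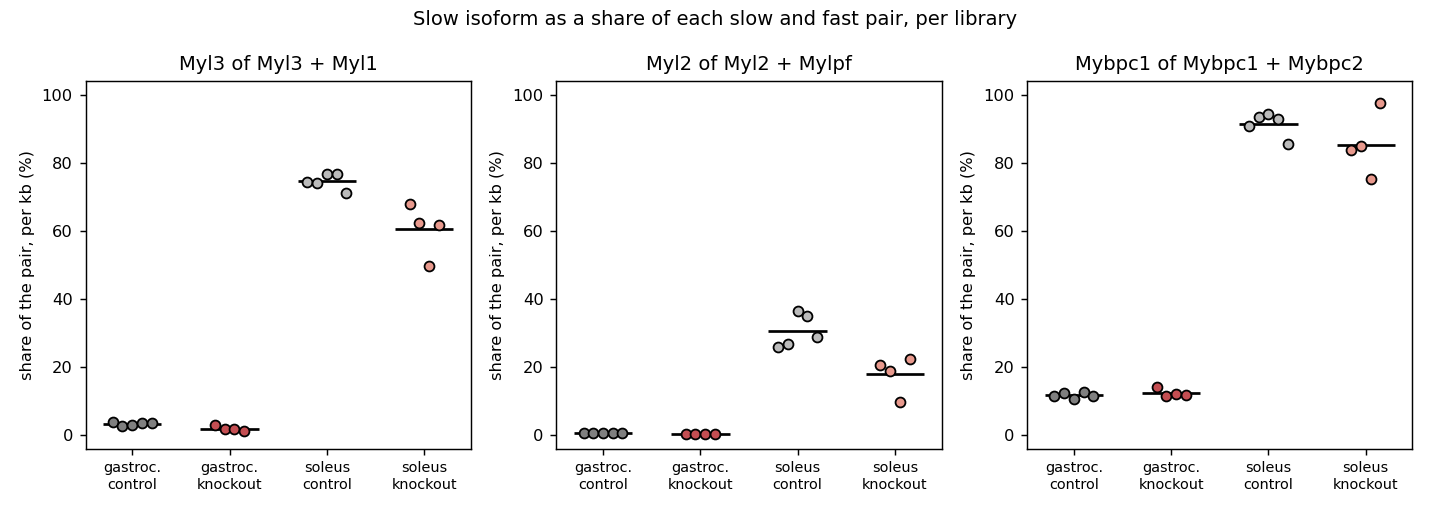
Slow member as a percentage of its slow and fast pair, from levels per kilobase, in each library (points) with the group mean (line). Points of the soleus knockouts lie below all soleus controls for Myl3 (49.8% to 68% against 71.2% to 76.8%) and Myl2, and span the controls for Mybpc1.

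Set as pairs, the slow member of both light chain pairs had a smaller mean share in the libraries labelled knockout. Myl3 was 3.32% ± 0.408 (SD, n = 5) of Myl3 plus Myl1 in gastrocnemius controls and 1.88% ± 0.768 (SD, n = 4) in knockouts. These groups overlapped, at 2.76% to 3.8% in controls and 1.09% to 2.93% in knockouts. In the soleus the share was 74.3%, 74%, 76.6%, 76.8% and 71.2% in controls and 68%, 62.2%, 49.8% and 61.7% in knockouts, so the groups did not overlap. Myl2 was 0.597% ± 0.0803 (SD, n = 5) of Myl2 plus Mylpf in gastrocnemius controls and 0.306% ± 0.102 (SD, n = 4) in knockouts. In the soleus it was 26%, 26.9%, 36.6%, 34.9% and 28.8% in controls and 20.5%, 18.7%, 9.7% and 22.4% in knockouts. For Mybpc1 of Mybpc1 plus Mybpc2 the soleus shares were 91.3% ± 3.55 (SD, n = 5) and 85.3% ± 9.22 (SD, n = 4) and overlapped. The gastrocnemius shares of Mybpc1 went the other way, 11.8% ± 0.797 (SD, n = 5) in controls and 12.4% ± 1.24 (SD, n = 4) in knockouts, and overlapped too. These shares were not tested and are computed from the values above, and without length scaling the mean log2 ratio of Myl3 over Myl1 in soleus knockouts moves from 0.62 to -0.05.

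The knockout effects of the muscles were then compared directly, as the soleus effect minus the gastrocnemius effect. No gene of the 10 passed in edgeR, where 0.0703% of 18494 genes did, and DESeq2 and limma voom called 0 of 10 as well. At an unadjusted p under 0.05 there were 3: Myl1 (log2 0.45, SE 0.17, adjusted p = 0.761), Mylk2 (0.42, SE 0.17, adjusted p = 0.84) and Mybpc1 (-0.22, SE 0.10, adjusted p = 0.865). Over all genes tested the unadjusted share was 5.4%. For Myl2, the effects of -0.95 and -0.72 differed by 0.23 (SE 0.22, adjusted p = 1). The call of Mylk2 in the gastrocnemius and its absence in the soleus are therefore not shown to differ. Both effects use their own controls, but the comparisons of muscles reuse the same libraries. The overall count of 13 called genes moved by over 1.5 times, to between 2 and 23, when any of replicates 1 to 6, 8, 34, 36 to 39, 41 or 42 was left out.

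The muscle difference in the libraries labelled knockout was, for Myl1, -1.93 (SE 0.13), for Mylpf -2.01 (SE 0.16), for Mylk2 -1.89 (SE 0.13), for Mybpc2 -3.84 (SE 0.54) and for Mybph -6.55 (SE 0.54) on the log2 scale. It was 4.11 (SE 0.18) for Myl2, 4.42 (SE 0.23) for Myl3, 2.97 (SE 0.33) for Myl6b and 1.47 (SE 0.07) for Mybpc1, each with an adjusted p of at most 4.82e-05. For Myl4 it was -0.02 (SE 0.51, adjusted p = 0.984) and its sign turned under other settings: 0.21 with plain library totals, 0.27 in limma voom and 0.99 (adjusted p = 0.0413) without gastrocnemius knockout 7.

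Related genes of the thick filament were counted from lists. In the gastrocnemius, 0 of 5 other light chain genes tested passed in edgeR (0 at an unadjusted p under 0.05), nor did any of 7 other light chain kinase and myosin phosphatase genes (1 unadjusted, Ppp1cb), of 6 M-band and other myosin-binding genes (2 unadjusted) or of 8 sarcomeric heavy chains (4 unadjusted), where 18.6% of all genes tested had an unadjusted p under 0.05. In the soleus 0 genes of these lists passed in edgeR, with 5, 7, 6 and 8 genes tested. At an unadjusted p under 0.05 there were 6, all with lower values (Myl10, Myl12a, Myl12b, Mylk3, Myh6 and Myh7). Over all genes tested in the soleus that share was 8.19%.

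Between the muscles in controls, the kinase gene Mylk4 was lower in the soleus (log2 -3.37, SE 0.32, adjusted p = 4e-07). Higher in the soleus were Mylk3, Ppp1r12a, Ppp1r12b and Ppp1r12c of the kinase and phosphatase genes, and Myl10, Myl12a and Myl12b of the other light chains. M-band genes split, Myom3 being higher (log2 2.94, SE 0.11, adjusted p = 3.71e-15) and Myom2 lower (-2.18, SE 0.21, adjusted p = 2.3e-07). Of the same list Ttn was also higher (log2 0.44, SE 0.15, adjusted p = 0.0158) and Myom1 also lower (-0.23, SE 0.07, adjusted p = 0.00603). Slow heavy chain Myh7 was higher (log2 4.46, SE 0.27, adjusted p = 1.33e-09) and fast heavy chain Myh4 lower (-5.42, SE 0.85, adjusted p = 9.89e-05). Of 8 sarcomeric heavy chains tested, 4 were higher and 2 lower, with Myh2, Myh6 and Myh7b also higher and Myh8 also lower. Myh2 rose from 3328 to 15435 CPM (log2 2.21, SE 0.10, adjusted p = 1.34e-13), and Myh1 did not pass (log2 0.34, SE 0.20, adjusted p = 0.17).

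Likeness of pattern was measured as Pearson's r of log2 CPM over the 18 libraries among 11369 genes with a mean log2 CPM of at least 1, which share libraries and, for most, the muscle difference. Nearest to Myl1 was Mylpf (0.996), and nearest to Myl2 was Myl3 (0.995), whose own nearest gene was Tnnc1 (0.996), the slow troponin C. Mybpc2 was nearest to Pvalb (0.998), encoding parvalbumin, a calcium buffer of fast fibres, and Mylk2 to Ccdc6 (0.995). Mybpc1 was nearest to Atp1b1 (0.995), Mybph to Man2a2 (0.987), Myl6b to Rab15 (0.960) and Myl4 to the imprinted gene Peg3 (0.940). These places depend on the measure. By Spearman's rank correlation, Ccdc6 ranked 1 for Mylk2, Myl3 ranked 2 for Myl2 and Pvalb 2 for Mybpc2. Tnnc1 ranked 5 for Myl3, Mylpf 6 for Myl1 and Peg3 14 for Myl4. Atp1b1 ranked 44 for Mybpc1, Rab15 64 for Myl6b and Man2a2 127 for Mybph. After the group means were removed, Mybpc2 kept Pvalb as its nearest gene (r = 0.989), and Myl1 and Mylpf held 0.92 between them. Myl2 and Myl3 then held 0.77, Myl4 was nearest to Plagl1 (0.931) and Igf2 (0.914), and Myl6b to Plxnb2 (0.942) and Myh3 (0.912). Libraries 7, 40 and 42 weigh on these last values, as the map of deviations shows.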

How the data were processed

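Total RNA depleted of ribosomal RNA was sequenced. The authors deposited a table per library of read counts, CPM and RPKM for Ensembl genes. Per the submitters' processing notes, reads were handled with bcl2fastq, STAR 2.5.1a, featureCounts 1.4.6-p5 and Subread on GRCm38. The sources used here do not give the annotation release, the strand setting or how reads with several matches were counted. The deposited CPM and RPKM equalled the deposited counts rescaled (within 4.9e-10 and 4.1e-10), so only counts were used. Reads shared by related genes may have been split between them. Symbols came from GENCODE mouse release 21 (40254 of 41388 genes, 97.3%).

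Models were fitted to the counts with edgeR 4.0.16 under R 4.3.3 (TMM scaling, filterByExpr at minimum count 10 and minimum total 15, robust quasi-likelihood F-test, Benjamini-Hochberg adjustment over all genes tested, threshold 0.05). Knockout comparisons used the 9 libraries of a muscle, and the others all 18 libraries in 4 groups. DESeq2 1.42.0, limma 3.58.1 (voom), other scalings, no filter and each library left out were alternatives. The edgeR fits of knockout against control were tried on simulated data with the same spread for every gene. Comparisons of muscles and of knockout effects were not simulated. Leaving out libraries 40 and 42, or 7, 40 and 42, was chosen after seeing the data. Chi-square per gene between replicates was 19.59 to 140.26, and none was merged. All 10 genes are named, with the 3 genes nearest to each searched, members of related lists that passed, and Mbtps1. The 10 genes and the lists were chosen with earlier results of these data known. Results of 1 related list are not reported here.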

Additional observations from a re-analysis of the deposited data

Results flagged for a closer look

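In 40 sets of levels (10 genes in 4 groups), 5 held a library whose gap to its nearest neighbour was a larger part of the group's range than Dixon's 95% limit allows, and chance gives about 1 in 20. The embryonic and atrial light chain Myl4 stood at 28.2 CPM in gastrocnemius knockout 7 (gap 0.905 of the range) and at 2.37 CPM in gastrocnemius control 8, the lowest control (0.772). Slow light chain Myl2 stood at 568 CPM in soleus knockout 40, the lowest of its group (0.892). Mybpc1 stood at 981 CPM in gastrocnemius knockout 6, the lowest of its group (0.901), which lay within the control range of 979 to 1078 CPM. Mybph stood at 0.924 CPM in soleus control 38, the highest of its group (0.716), at a level where reads of the overlapping Adora1 are as many.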

How the results depend on the processing

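Of 50 results for single genes, 45 kept their direction under every setting tried. The gastrocnemius count of called genes moved from 619 to 1235 in DESeq2 and to between 206 and 1080 with each library left out. Of the 10 genes, 2 were called with each library left out. These were Mylk2 and Myl2, except without knockout 7, where Myl4 (adjusted p = 0.0276 in edgeR) was called and Myl2 (0.0588) was not. DESeq2, limma voom and the edgeR fit of all 18 libraries each called 3, adding Myl3. The soleus count moved from 10 to 48 with no filter, 166 in DESeq2, 28 with all 18 libraries fitted, 5 without libraries 40 and 42, and 3 to 66 with each library left out. Of the 10 genes, 1 was called in the soleus with no filter, 3 in DESeq2, and 0 to 1 with a library left out. For the difference of effects, the count of 13 moved to 52 in DESeq2, 7 in limma voom and 2 to 23 with a library left out. Counts between muscles ran from 8360 to 9356 in controls and 5998 to 7108 in knockouts with a library left out. The sign turned for Myl4 between muscles in knockouts (-0.02): 0.21 with plain totals, 0.15 without the 20 most counted genes, 0.27 in limma voom, 0.00 with 2 groups fitted, 0.21 without libraries 7, 40 and 42, and -0.53 to 0.99 with each library left out (0.99 without 7, 0.15 without 35, 0.18 without 39, 0.02 without 42). It also turned for Myl6b (-0.04) and Mylpf (-0.06) without gastrocnemius knockout 7 and Mybpc2 (-0.01) without knockout 9, with ranges up to 0.39, 0.17 and 0.08 over the libraries left out, Myl4 in the soleus (-0.05) without libraries 40 and 42, and the log2 ratio of Myl3 over Myl1 in soleus knockouts (-0.05) without length scaling, where the changed scale is the cause. The cause of the others was not tested. The share of called genes that were higher in gastrocnemius knockouts was 46.8%, against 67.6% with plain totals and 77.9% without the 20 most counted genes. No paired analysis was run, because no replicate number is shared between groups and no label ties a soleus to a gastrocnemius library. No label says whether the muscles came from the same mice, and the effect of such a pairing on the comparisons of muscles was not tested.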
